A study of Mus musculus with 3 samples.

Results

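Chemoattractant receptors are the surface proteins by which leukocytes read soluble guidance cues. The 10 genes described here are the chemokine receptors Cxcr2, Cxcr4, Ccr1, Ccr2 and Cx3cr1, the formyl peptide receptors Fpr1 and Fpr2, the complement anaphylatoxin receptors C5ar1 and C3ar1, and the leukotriene B4 receptor Ltb4r1. They were found by symbol, and all 10 are among the 24421 gene symbols of each deposited table. RNA had been sequenced from granulocyte progenitors, precursors already restricted to the granulocyte lineage, sorted by flow cytometry out of bone marrow from female mice. There were 3 libraries, 1 per group. The IRF8-deficient library came from C57BL/6 (H-2b) mice deficient in IRF8, the transcription factor that steers myeloid precursors to monocytes and dendritic cells and away from granulocytes. The 4T1-TB library came from F1 semi-syngeneic (H-2b/d) mice that carried 4T1 cells, a mouse mammary carcinoma line, implanted at the orthotopic site. The NTB library came from F1 semi-syngeneic (H-2b/d) mice with no tumor and served as the control. Strain and genotype cannot be told apart in any comparison with the IRF8-deficient library. The sources used here do not give the mutant allele, the age of the mice or how many mice each library came from.

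All 10 proteins are receptors with a bundle of membrane-spanning helices that signal mainly through inhibitory G proteins to phosphoinositide 3-kinase, small GTPases and the actin cytoskeleton. They are silenced by receptor kinases and arrestins. In the marrow, CXCR4 holds granulocyte precursors near stromal cells that secrete CXCL12, and CXCR2 drives the release of maturing neutrophils toward chemokines such as CXCL1 and CXCL2. Receptors for formyl peptides, C5a and leukotriene B4 guide mature neutrophils through inflamed tissue, while CCR2 and CX3CR1 are best known on monocytes.

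With 1 library per group no difference could be tested against the spread between animals. Values are RPKM (reads scaled to gene length in kilobases and to library size), which allow genes of different length to be compared. Whole reads could be recovered from the deposited values, and intervals are exact 95% Poisson intervals for a level and exact 95% binomial (Clopper-Pearson) intervals for a ratio. They cover counting error only, and reads from PCR-amplified libraries are not independent molecules. A gene was called higher or lower where log2(RPKM + 1) differed by 1 or more between libraries, among the 10658 genes that reached an RPKM of 1 in any library. That scale understates the difference of genes with low values. Of the 10 receptors, 9 were compared and C3ar1 was not. Fpr1 was under an RPKM of 1 in the NTB library and was compared only through the other 2 libraries. Since these are bulk samples, a smaller share of cells that express a gene and less RNA per cell cannot be told apart.

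The recovered reads totalled 37008004 in the IRF8-deficient, 24050326 in the 4T1-TB and 43548587 in the NTB library. Irf8 itself stood at an RPKM of 13.7 in the IRF8-deficient, 8.60 in the 4T1-TB and 43.8 in the NTB library. It was lower than in NTB in both other libraries. The mutant allele is not given, and a gene-level value does not show whether reads fall in a part that it alters. Mpo, the myeloperoxidase of primary granules that marks the progenitor stage, was at 4012 in the IRF8-deficient, 6749 in the 4T1-TB and 6811 in the NTB library. Among primary granule proteases, Elane was at 2889 in the IRF8-deficient, 4332 in the 4T1-TB and 4411 in the NTB library. Prtn3 was at 1535 in the IRF8-deficient, 4585 in the 4T1-TB and 2992 in the NTB library. Ctsg was at 1077 in the IRF8-deficient, 3617 in the 4T1-TB and 2112 in the NTB library. Kit, the stem cell factor receptor, was at 53.2 in the IRF8-deficient, 37.5 in the 4T1-TB and 57.2 in the NTB library. Cd34, an early progenitor antigen, was at 5.41 in the IRF8-deficient, 8.73 in the 4T1-TB and 36.9 in the NTB library. The libraries stood apart in their most abundant transcripts. Rn45s, the ribosomal RNA precursor, took 13.4% of recovered reads in the IRF8-deficient, 6.15% in the 4T1-TB and 1.74% in the NTB library.

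Genes that mark maturing neutrophils also differed between the libraries. All 15 such markers had reads in all libraries, with a summed RPKM of 140731 in the IRF8-deficient, 14340 in the 4T1-TB and 10137 in the NTB library. Most of each sum came from S100a8 and S100a9. S100a8 was at 49180 in the IRF8-deficient, 6254 in the 4T1-TB and 4255 in the NTB library. S100a9 was at 51478 in the IRF8-deficient, 6556 in the 4T1-TB and 4413 in the NTB library. Of the 15, 14 were called higher and 0 lower in IRF8-deficient than in NTB, and 7 were higher and 0 lower in 4T1-TB than in NTB. Between IRF8-deficient and 4T1-TB, 12 were higher and 1 was lower in IRF8-deficient. Over all genes compared, 8.78% were higher and 5.73% lower in IRF8-deficient than in NTB. In 4T1-TB against NTB the shares were 1.67% and 1.35%, and in IRF8-deficient against 4T1-TB 8.83% and 7.07%. These shares stand beside the counts of the other marker lists too. The part of maturing neutrophils in the receptor differences below was not tested.

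Transcripts of 5 receptors were lowest in the NTB library and higher in both other libraries. They were Cxcr2, Ccr1, Fpr1, Fpr2 and C5ar1. Cxcr4, Ltb4r1 and Ccr2 were highest in the IRF8-deficient library and lowest in the 4T1-TB library. Cx3cr1 was highest in NTB, and C3ar1 was close to undetected in all libraries. The levels of the 10 receptors in each library are plotted by gene.

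**Figure D1:**
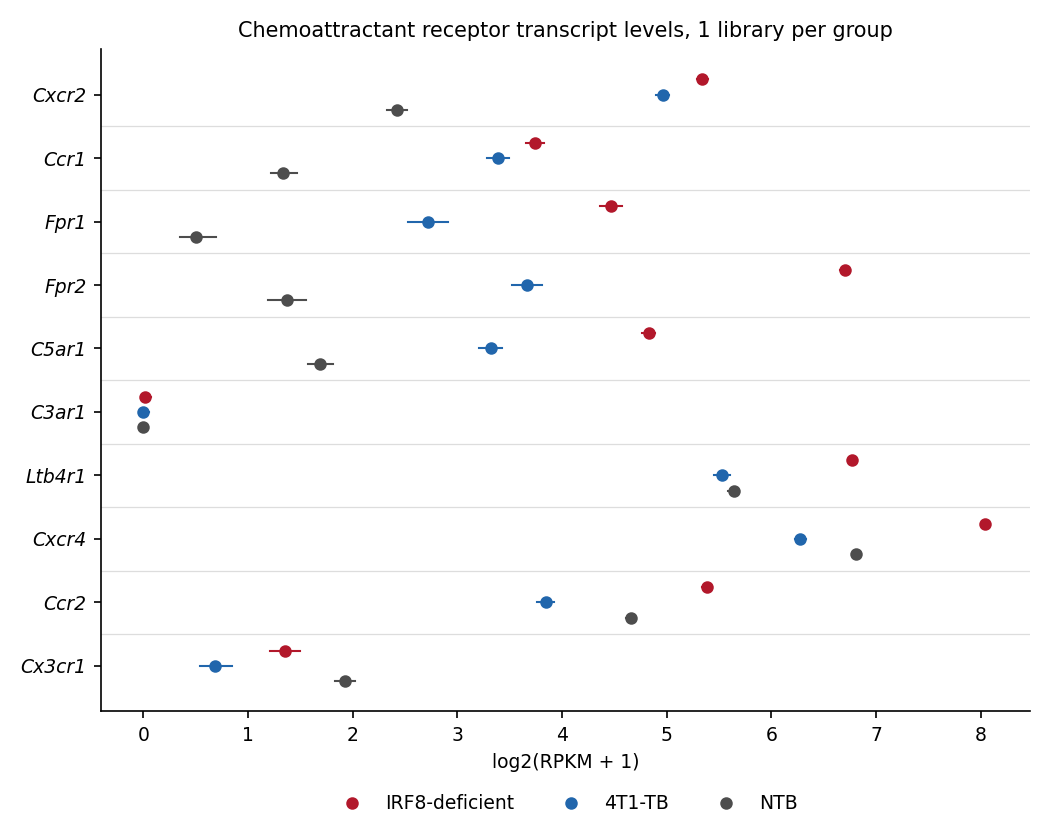
Transcript level of each receptor as log2(RPKM + 1), with 1 point per library (red IRF8-deficient, blue 4T1-TB, grey NTB) and horizontal bars for the exact 95% Poisson counting interval. Cxcr2, Ccr1, Fpr1, Fpr2 and C5ar1 sit lowest in NTB, while Cx3cr1 sits highest there and C3ar1 lies at or next to 0.

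Cxcr2 encodes the receptor for neutrophil-attracting CXC chemokines. It lies on chromosome 1 at 74153989-74161246 (plus strand) and has 2 exon blocks. Positions here and below are gene spans of GENCODE M21 on mm10. Its RPKM was 39.5 in the IRF8-deficient library (3140 reads), 30.2 in the 4T1-TB library (2038 reads) and 4.38 in the NTB library (597 reads). The IRF8-deficient and 4T1-TB values were close to each other and far above the NTB value. The ratio was 9.02 for IRF8-deficient over NTB (95% interval 8.26 to 9.86) and 6.89 for 4T1-TB over NTB (6.28 to 7.56). In 4T1-TB against NTB, 29 of the 10658 genes compared had a larger difference than Cxcr2. IRF8-deficient over 4T1-TB gave 1.31 (1.24 to 1.39), which excluded 1 for counting error but was not called. This log2 difference was 0.38 as deposited and 0.00 after scaling by summed recovered reads, under which the all-gene median was -0.33.

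Ccr1 encodes a receptor for inflammatory CC chemokines and lies on chromosome 9 at 123962124-123968692 (minus strand). Its RPKM was 12.4 in the IRF8-deficient (916 reads), 9.45 in the 4T1-TB (594 reads) and 1.53 in the NTB library (194 reads). The order of the libraries was that of Cxcr2, at a lower level in each. The ratio was 8.10 for IRF8-deficient over NTB (6.93 to 9.51), 6.18 for 4T1-TB over NTB (5.24 to 7.30) and 1.31 for IRF8-deficient over 4T1-TB (1.18 to 1.46). Its log2 difference between IRF8-deficient and 4T1-TB was 0.36 as deposited and 0.00 after scaling by summed recovered reads.

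The formyl peptide receptors sense bacterial and mitochondrial N-formyl peptides, and Fpr2 also binds host peptides such as those of annexin A1, serum amyloid A and cathelicidin. Fpr1 (chromosome 17, 17876471-17883940, minus strand) had an RPKM of 21.1 in the IRF8-deficient (730 reads), 5.58 in the 4T1-TB (164 reads) and 0.422 in the NTB library (25 reads). Fpr2 (chromosome 17, 17887824-17893952, plus strand) had an RPKM of 103 in the IRF8-deficient (3479 reads), 11.7 in the 4T1-TB (336 reads) and 1.58 in the NTB library (92 reads). The libraries stood in the same order for both genes, with wide gaps between them. Fpr1 was 50.1-fold higher in IRF8-deficient than in NTB (33.7 to 77.9), and Fpr2 was 64.9-fold higher (52.7 to 80.7). Only 7 of all genes compared had a larger log2 difference than Fpr2 in that comparison. In 4T1-TB over NTB the ratios were 13.2 for Fpr1 (8.65 to 21.04) and 7.37 for Fpr2 (5.83 to 9.38). The intervals of Fpr1 against NTB rest on 25 reads in NTB and are wide. In IRF8-deficient over 4T1-TB, Fpr2 differed by 8.81-fold (7.87 to 9.88) and Fpr1 by 3.79-fold (3.19 to 4.51).

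The pair also differed in proportion within each library. Fpr2 stood at 4.87 times the RPKM of Fpr1 in IRF8-deficient (4.49 to 5.28), at 2.09 times in 4T1-TB (1.73 to 2.54) and at 3.76 times in NTB (2.39 to 6.10). The IRF8-deficient and 4T1-TB intervals did not overlap, whereas the NTB interval overlapped both. The 2 genes lie head to head with 3884 bases between them. Fpr2 overlaps the annotated span of Fpr3, a close paralog listed at 1 read in IRF8-deficient and 0 reads in both other libraries, and reads shared between such paralogs are uncertain.

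C5ar1 encodes the receptor for the complement fragment C5a (chromosome 7, 16246743-16259540, minus strand). Its RPKM was 27.4 in the IRF8-deficient (1839 reads), 8.97 in the 4T1-TB (512 reads) and 2.23 in the NTB library (257 reads). In RPKM ratio, the step from NTB to 4T1-TB was larger than that from 4T1-TB to IRF8-deficient. The ratio was 12.3 for IRF8-deficient over NTB (10.8 to 14.0), 4.02 for 4T1-TB over NTB (3.45 to 4.69) and 3.05 for IRF8-deficient over 4T1-TB (2.77 to 3.38). C3ar1, the receptor for C3a (chromosome 6, 122847138-122856161, minus strand), had 1 read in IRF8-deficient and 0 reads in 4T1-TB and NTB. Its exact 95% interval reached up to an RPKM of 0.0386 in 4T1-TB and 0.0192 in NTB.

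The stretches of 250 bases before the RefSeq starts of those 5 receptors are shown, since these genes were higher together. They are from RefSeq on GRCm38.p6, each 5′ to 3′ on the strand of its gene, and all 10 receptors had an entry. Capitals mark matches, on either strand, to GAGGAA, the core bound by the myeloid factor PU.1, or to TTNNGNAA, a pattern of C/EBP factors. The windows are chr1:74153744-74153993 (plus strand), chr9:123968693-123968942 (minus), chr17:17883940-17884189 (minus), chr17:17887574-17887823 (plus) and chr7:16259339-16259588 (minus). RefSeq and GENCODE starts can differ. The C5ar1 window runs into its GENCODE span, which ends at 16259540, and its marked match lies in the overlapping part. The Cxcr2 and Fpr1 windows overlap their spans only at the edge.
Cxcr2: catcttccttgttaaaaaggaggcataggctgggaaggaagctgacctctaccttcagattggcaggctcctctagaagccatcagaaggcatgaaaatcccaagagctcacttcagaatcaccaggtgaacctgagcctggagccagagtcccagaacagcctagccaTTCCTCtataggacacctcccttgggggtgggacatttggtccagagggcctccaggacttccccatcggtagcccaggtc
Ccr1: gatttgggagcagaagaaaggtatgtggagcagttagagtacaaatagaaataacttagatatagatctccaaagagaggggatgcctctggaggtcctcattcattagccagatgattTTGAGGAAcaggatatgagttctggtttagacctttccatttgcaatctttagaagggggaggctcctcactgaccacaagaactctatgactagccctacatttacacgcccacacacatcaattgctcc
Fpr1: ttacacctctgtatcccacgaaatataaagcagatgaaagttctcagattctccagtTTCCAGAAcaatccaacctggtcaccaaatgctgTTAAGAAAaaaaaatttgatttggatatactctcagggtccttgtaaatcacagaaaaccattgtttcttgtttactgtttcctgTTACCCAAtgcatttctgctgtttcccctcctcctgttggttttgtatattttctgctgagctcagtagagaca
Fpr2: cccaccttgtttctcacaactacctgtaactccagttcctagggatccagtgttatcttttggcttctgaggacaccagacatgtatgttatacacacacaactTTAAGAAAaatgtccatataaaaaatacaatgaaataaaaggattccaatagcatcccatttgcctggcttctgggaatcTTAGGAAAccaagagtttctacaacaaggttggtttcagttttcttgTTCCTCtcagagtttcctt
C5ar1: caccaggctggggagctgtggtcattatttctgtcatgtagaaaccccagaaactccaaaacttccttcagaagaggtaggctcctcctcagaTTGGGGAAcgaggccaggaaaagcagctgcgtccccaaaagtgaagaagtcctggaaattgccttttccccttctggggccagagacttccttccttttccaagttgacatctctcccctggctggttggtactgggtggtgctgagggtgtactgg

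GAGGAA occurred in 4 of the 10 receptor windows (Cxcr2, Ccr1, Fpr2 and Ltb4r1), and 23.3% of 32851 RefSeq promoter windows of the same length held it. TTNNGNAA occurred in 6 of 10 (Cxcr4, Ccr1, Ccr2, Fpr1, Fpr2 and C5ar1), against 36.8% of all windows. In Ccr1 the 2 matches overlap. Fpr1 had 3 matches to TTNNGNAA, the nearest at 74 bases before the start, and Fpr2 had 2 of them and 1 match to GAGGAA at 19 bases before the start. The ETS-IRF composite (GGAA, any 2 bases, then GAAA) occurred in 0 of 10 and in 2.30% of all windows, and the IRF repeat (GAAA, any 2 bases, then GAAA) in 0 of 10 and in 2.98% of all windows. A match is a run of letters and says nothing of occupancy.

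Cxcr4, the CXCL12 receptor, had the highest level of the 10 in each library (chromosome 1, 128588199-128592293, minus strand). Its RPKM was 262 in the IRF8-deficient (12403 reads), 76.5 in the 4T1-TB (3080 reads) and 111 in the NTB library (8989 reads). Relative to NTB, the IRF8-deficient value was higher and the 4T1-TB value was lower. The ratio was 2.37 for IRF8-deficient over NTB (2.30 to 2.43), 0.691 for 4T1-TB over NTB (0.663 to 0.720, not called) and 3.42 for IRF8-deficient over 4T1-TB (3.29 to 3.56). The call in IRF8-deficient against NTB depended on scaling: its log2 difference was 1.24 as deposited and 0.70 after scaling by summed recovered reads. Under that scaling the all-gene median was -0.51, and relative to it Cxcr4 stood at 1.204.

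Ltb4r1, the high-affinity leukotriene B4 receptor (chromosome 14, 55765962-55768494, plus strand), was the second most abundant receptor in each library. Its RPKM was 108 in the IRF8-deficient (3937 reads), 45.2 in the 4T1-TB (1398 reads) and 48.9 in the NTB library (3046 reads). The 4T1-TB and NTB values were nearly level and the IRF8-deficient value stood above both. The ratio was 2.22 for IRF8-deficient over NTB (2.11 to 2.33), 0.926 for 4T1-TB over NTB (0.868 to 0.987, not called) and 2.40 for IRF8-deficient over 4T1-TB (2.25 to 2.55). Scaling by summed recovered reads gave log2 differences of 0.60 against NTB and 0.86 against 4T1-TB, both under the call, with 1.11 and 1.19 relative to the median of all genes. Leaving the 20 highest genes out of the scaling gave 0.95 against NTB.

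Ccr2, the CCL2 receptor that releases monocytes from the marrow (chromosome 9, 124101950-124113557, plus strand), had an RPKM of 40.8 in the IRF8-deficient (3821 reads), 13.4 in the 4T1-TB (1067 reads) and 24.2 in the NTB library (3887 reads). NTB thus lay between the other 2. The ratio was 1.69 for IRF8-deficient over NTB (1.61 to 1.76) and 0.554 for 4T1-TB over NTB (0.517 to 0.593), and neither was called. IRF8-deficient over 4T1-TB gave 3.05 (2.85 to 3.26) and was called. Cx3cr1, the fractalkine receptor of patrolling monocytes (chromosome 9, 119901616-120069879, minus strand), had an RPKM of 1.55 in the IRF8-deficient (152 reads), 0.612 in the 4T1-TB (51 reads) and 2.81 in the NTB library (472 reads). It was the receptor with the lowest 4T1-TB value among the 9 compared. Its ratio was 0.218 for 4T1-TB over NTB (0.160 to 0.291), a log2 difference of -1.24 that was called. IRF8-deficient over NTB gave 0.552 (0.457 to 0.665) and IRF8-deficient over 4T1-TB gave 2.53 (1.83 to 3.55), and neither was called. The span of Cx3cr1 overlaps Wdr48, Gorasp1, Ttc21a, Csrnp1 and Xirp1 on either strand, and the sources used here do not say whether the libraries were stranded, so its few reads are uncertain.

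Beside Ccr2 and Cx3cr1, the 14 markers of monocytes and macrophages had a summed RPKM of 1593 in the IRF8-deficient, 620 in the 4T1-TB and 999 in the NTB library, with none at 0. Of the 12 compared, 1 was higher and 3 were lower in IRF8-deficient than in NTB, and 0 were higher and 4 lower in 4T1-TB than in NTB. In IRF8-deficient against 4T1-TB, 3 were higher and 1 was lower. Ly86, an accessory protein of a B cell and myeloid surface receptor, was at 3.53 in the IRF8-deficient, 4.88 in the 4T1-TB and 20.3 in the NTB library. Ly6c2, a surface antigen of inflammatory monocytes, made up most of each monocyte and macrophage sum. It was at 1349 in the IRF8-deficient, 478 in the 4T1-TB and 739 in the NTB library. The part of monocyte-lineage cells in the values of Ccr2 and Cx3cr1 was not tested. The 8 T and NK cell markers summed to 0.696 in the IRF8-deficient, 0.696 in the 4T1-TB and 0.689 in the NTB library, and the 10 dendritic cell markers to 21.9 in the IRF8-deficient, 24.5 in the 4T1-TB and 23.2 in the NTB library. Most of the dendritic sum was Bst2, at 12.6 in the IRF8-deficient, 20.4 in the 4T1-TB and 17.7 in the NTB library, whereas H2-Ab1, an MHC class II gene, was at 4.21 in the IRF8-deficient, 1.93 in the 4T1-TB and 2.43 in the NTB library. The 8 basophil and mast cell markers summed to 65.7 in the IRF8-deficient, 84.7 in the 4T1-TB and 124 in the NTB library. Most of each sum was Hdc, at 54.5 in the IRF8-deficient, 61.4 in the 4T1-TB and 104 in the NTB library. Mcpt8 had another order, at 8.73 in the IRF8-deficient, 20.4 in the 4T1-TB and 15.7 in the NTB library.

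In IRF8-deficient against NTB, 7 of the 9 receptors compared were called higher and 0 lower. Over all genes compared, 8.78% were called higher and 5.73% lower. The median difference of the 9 was 2.40, beside -0.02 over all genes, and 5 of the 9 were 4-fold higher on that scale, at a difference of 2 or more in log2(RPKM + 1), beside 1.9% of all genes. In 4T1-TB against NTB, 5 were called higher and 1 lower, where 1.67% of all genes were higher and 1.35% lower. Their median difference was 1.63, beside 0.01 over all genes, and 4 were 4-fold higher on the same scale, beside 0.441% of all genes. C5ar1, with an RPKM ratio of 4.02, had a difference of 1.63 on it and is not among the 4. In IRF8-deficient against 4T1-TB, 6 were called higher and 0 lower, where 8.83% of all genes were higher and 7.07% lower. The median was 1.51, beside -0.00 over all genes, and 1 receptor, Fpr2, was 4-fold higher on the same scale, beside 1.67% of all genes. Both comparisons with NTB use the same NTB library and are given side by side only.

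**Figure D2:**
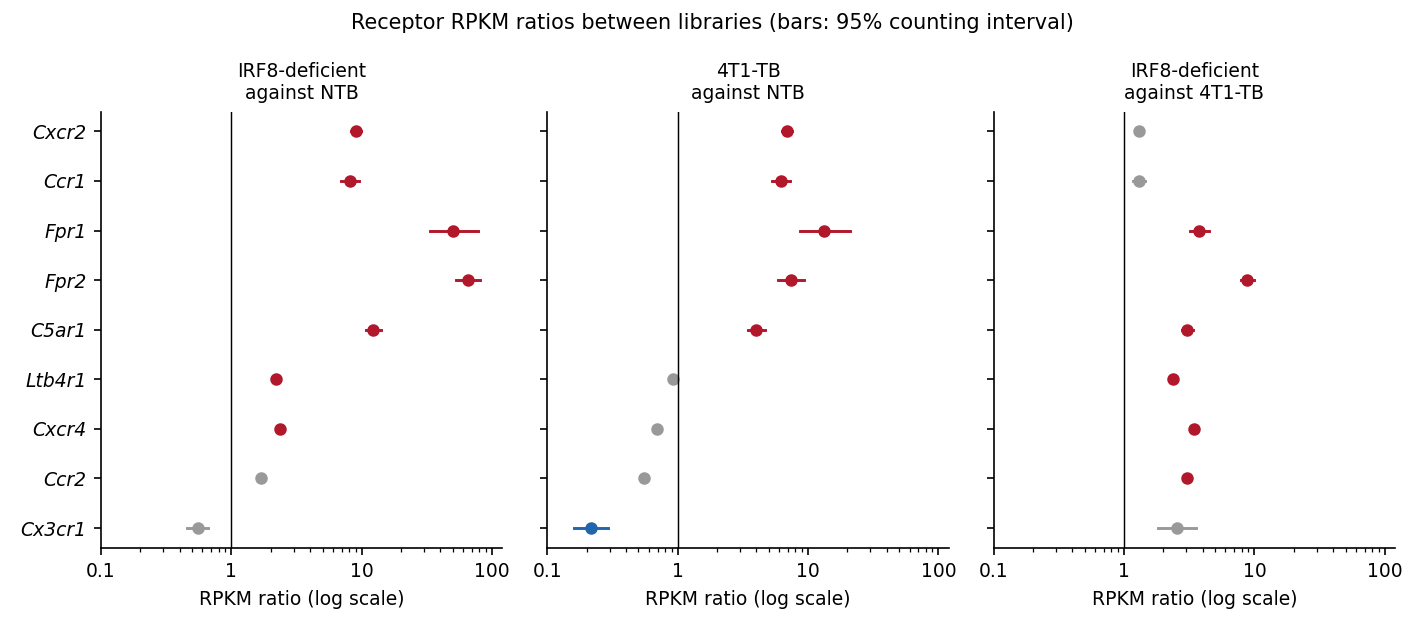
RPKM ratio of the 9 receptors compared, on a log axis, with exact 95% counting intervals and a line at 1 (red called higher, blue called lower, grey not called). In 4T1-TB against NTB the receptors split, with Cxcr2 at 6.89 and Cx3cr1 at 0.218, while in IRF8-deficient against 4T1-TB all 9 lie above 1.

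The balance of higher and lower calls over all genes depended on scaling. Of the genes called in IRF8-deficient against NTB, 936 were higher and 611 lower as deposited, but 464 were higher and 1975 lower after scaling by summed recovered reads. In 4T1-TB against NTB the numbers were 178 higher and 144 lower as deposited, and 156 higher and 210 lower after that scaling. In IRF8-deficient against 4T1-TB they were 941 higher and 754 lower as deposited, and 505 higher and 1572 lower after it. Under the 3 scalings tried, no receptor difference changed sign, though Cxcr2 and Ccr1 in IRF8-deficient against 4T1-TB came close to 0.

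**Figure D3:**
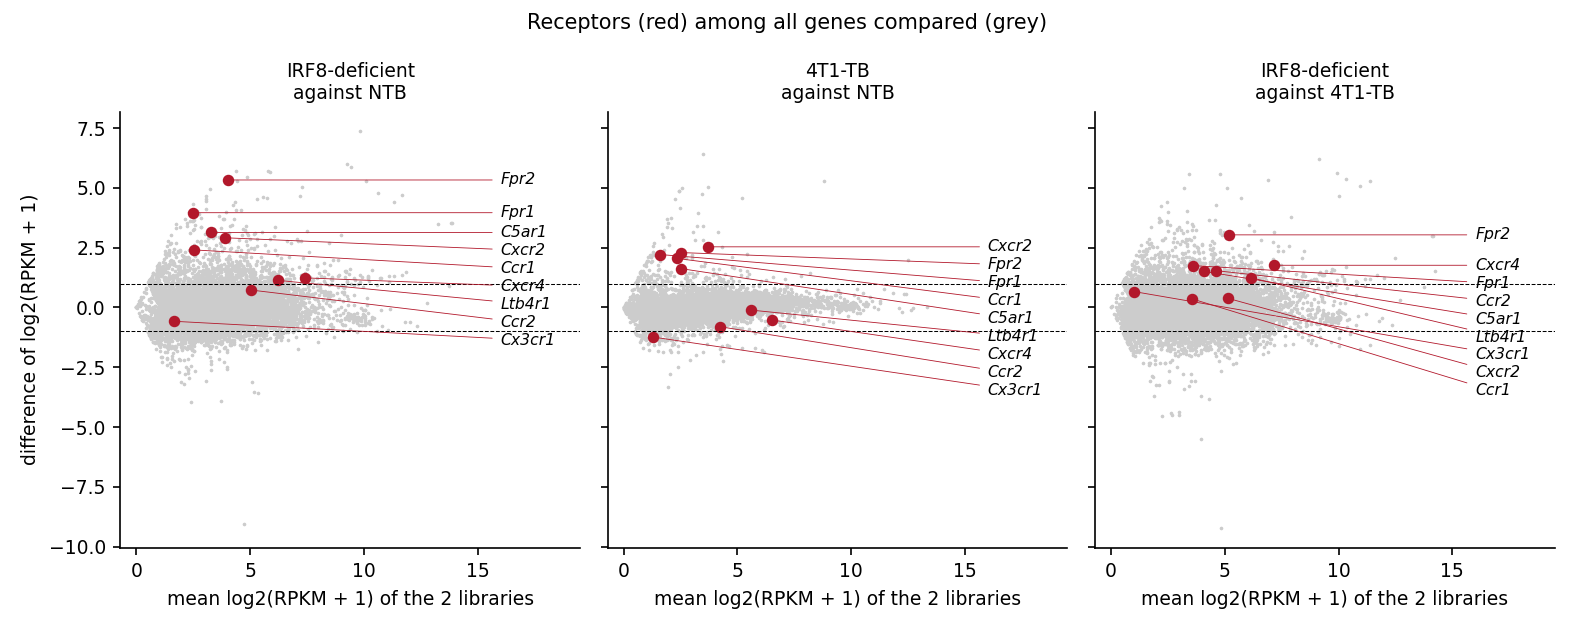
Difference of log2(RPKM + 1) against the mean level of the 2 libraries for all 10658 genes compared (grey) and the 9 receptors (red, labelled), with dashed lines at the call threshold of 1 and -1. In 4T1-TB against NTB, Cxcr2, Fpr2, Fpr1, Ccr1 and C5ar1 lie above the upper dashed line, with 29 genes above Cxcr2 and 65 above C5ar1.

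The make-up of the receptor pool differed between the libraries. The summed RPKM of the 10 receptors was 616 in the IRF8-deficient, 202 in the 4T1-TB and 197 in the NTB library. Cxcr4 and Ltb4r1 together held 60.1% of it in IRF8-deficient, 60.4% in 4T1-TB and 81.1% in NTB. The 4T1-TB and NTB sums were nearly equal, with these 2 receptors ranked highest in both but at different shares. Cxcr2 made up 6.42% of the sum in IRF8-deficient, 14.97% in 4T1-TB and 2.23% in NTB. Fpr2 made up 16.7% in IRF8-deficient, 5.79% in 4T1-TB and 0.806% in NTB. An RPKM of at least 10 was reached by 8 receptors in IRF8-deficient, 5 in 4T1-TB and 3 in NTB.

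**Figure D4:**
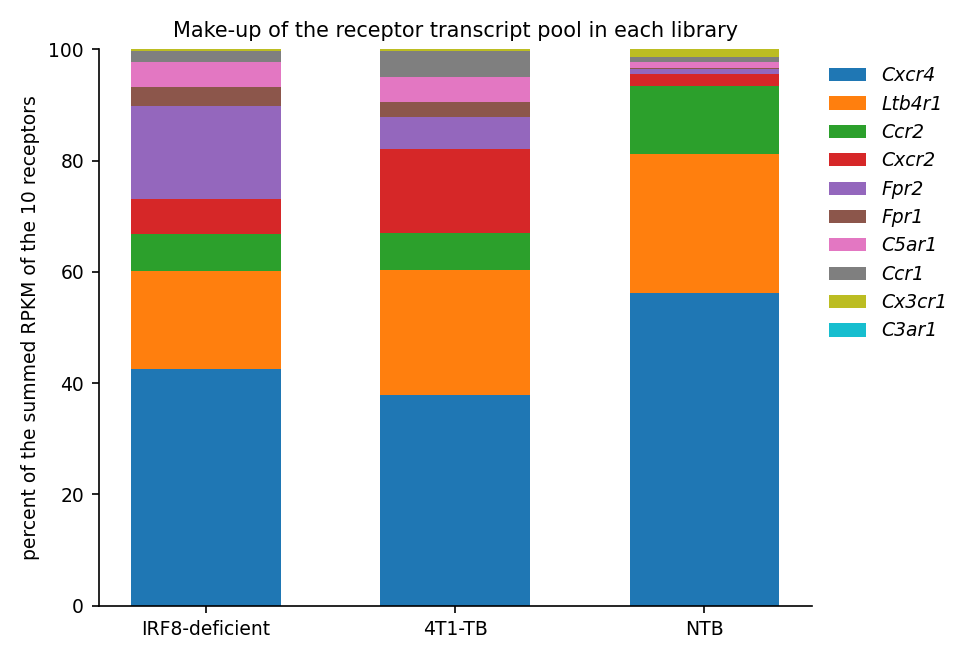
Percent of the summed RPKM of the 10 receptors that each receptor holds, stacked for the IRF8-deficient, 4T1-TB and NTB libraries. Cxcr4 holds 42.5% in IRF8-deficient, 37.9% in 4T1-TB and 56.3% in NTB, and Cxcr2 is widest in 4T1-TB.

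In IRF8-deficient, Cxcr4 was followed by Ltb4r1 and Fpr2, then by Ccr2 and Cxcr2, and then by C5ar1, Fpr1, Ccr1, Cx3cr1 and C3ar1. In 4T1-TB the order was Cxcr4, Ltb4r1, Cxcr2, Ccr2, Fpr2, Ccr1, C5ar1, Fpr1, Cx3cr1 and C3ar1. In NTB it was Cxcr4, Ltb4r1, Ccr2, Cxcr2, Cx3cr1, C5ar1, Fpr2, Ccr1, Fpr1 and C3ar1. For 3 pairs of neighbours the counting interval of their RPKM ratio included 1. They were Ccr2 over Cxcr2 in IRF8-deficient (1.03, 0.984 to 1.08), Ccr1 over C5ar1 in 4T1-TB (1.05, 0.934 to 1.19) and Fpr2 over Ccr1 in NTB (1.04, 0.799 to 1.33). For Ltb4r1 over Fpr2 in IRF8-deficient (1.05, 1.01 to 1.10) and Ccr2 over Fpr2 in 4T1-TB (1.15, 1.01 to 1.30) the intervals of the single levels overlapped while that of the ratio excluded 1. The level intervals of all other neighbours in these orders did not overlap.

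Cxcr2 and Cxcr4, which act in opposite directions on release from the marrow, stood in different proportions. Cxcr2 had 0.151 times the RPKM of Cxcr4 in IRF8-deficient (0.145 to 0.157), 0.394 times in 4T1-TB (0.373 to 0.417) and 0.0396 times in NTB (0.0364 to 0.0430). The 3 intervals did not overlap, and the ratio was highest in 4T1-TB. Ccr1 over Ccr2 followed the same order, at 0.304 in IRF8-deficient (0.282 to 0.327), 0.706 in 4T1-TB (0.637 to 0.781) and 0.0633 in NTB (0.0545 to 0.0731). These ratios are taken within a library and do not depend on its scaling.

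Likeness to Cxcr2 was taken as distance in the pair of log2(RPKM + 1) differences from NTB. Among 8523 genes that reached an RPKM of 5 in any library, the nearest were Lilrb4a (distance 0.14), Lilr4b (0.28), Cd300lf (0.41), Cd101 (0.50) and Mir6236 (0.61). Lilrb4a was at 45.2 in the IRF8-deficient, 35.3 in the 4T1-TB and 4.79 in the NTB library, close to Cxcr2 in level as well. Lilrb4a and Lilr4b are near-identical paralogs whose reads may be split between them. Mir6236 was at 11.2 in the IRF8-deficient, 8.05 in the 4T1-TB and 0.182 in the NTB library, which is also the library order of Rn45s. Cd101 was at 5.88 in the IRF8-deficient, 3.71 in the 4T1-TB and 0.0965 in the NTB library. That scale understates differences from such low NTB values, and the RPKM ratios of Cd101 and Mir6236 to NTB were larger than those of Cxcr2. Nearest to Cxcr4 were Ddx60 (0.08), Ankrd13d (0.08), Scnn1a (0.10), Sp100 (0.11) and Tnfaip8l2 (0.11). These likenesses rest on 3 libraries.

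Some genes beside the receptors on their chromosomes are receptors too, and most were near 0. Cxcr1, 30.5 kb from Cxcr2, had 0 reads in IRF8-deficient, 42 reads in 4T1-TB and 0 reads in NTB, and its RPKM was 1.68 in 4T1-TB. C5ar2, which binds C5a without coupling to G proteins and lies 2.59 kb from C5ar1, was at 8.83 in the IRF8-deficient, 2.31 in the 4T1-TB and 1.30 in the NTB library. Its order of libraries was that of C5ar1, at a lower level in each. Between Ccr1 and Ccr2 lies Ccr3, with 1 read in IRF8-deficient, 0 in 4T1-TB and 3 in NTB. Ltb4r2, a low-affinity leukotriene B4 receptor 0.824 kb from Ltb4r1, was at 0.266 in the IRF8-deficient, 0.0626 in the 4T1-TB and 0.217 in the NTB library.

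Of 36 other chemoattractant receptors, 34 were in the tables and 17 had 0 reads in each of the libraries, though not always the same 17. The 7 that were compared gave 4 higher and 0 lower in IRF8-deficient than in NTB, 1 higher and 0 lower in 4T1-TB than in NTB, and 4 higher and 1 lower in IRF8-deficient than in 4T1-TB. Their median differences were 1.58, 0.53 and 1.03 in that order of comparisons. Over all genes, 8.78%, 1.67% and 8.83% were higher and 5.73%, 1.35% and 7.07% lower in that order, also beside the lists below. The gene higher in 4T1-TB than in NTB and the gene lower in IRF8-deficient than in 4T1-TB were both Cxcr1, which passed the filter only through the 4T1-TB library, where it is high. Ptafr, the receptor for platelet-activating factor, was at 19.6 in the IRF8-deficient, 4.63 in the 4T1-TB and 2.33 in the NTB library. Gpr84, a receptor for medium-chain fatty acids, was at 20.4 in the IRF8-deficient, 11.6 in the 4T1-TB and 6.16 in the NTB library. Both were called higher in IRF8-deficient than in NTB and neither was called in 4T1-TB against NTB. S1pr4, a sphingosine 1-phosphate receptor, was at 27.7 in the IRF8-deficient, 7.11 in the 4T1-TB and 8.39 in the NTB library. Ccrl2, an atypical receptor that binds chemerin, was at 2.89 in the IRF8-deficient, 0.901 in the 4T1-TB and 1.28 in the NTB library.

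Of 25 ligands and ligand-making enzymes, 10 were compared. The CXCR2 ligand genes Cxcl1, Cxcl3 and Cxcl5 and the CX3CR1 ligand Cx3cl1 had 0 reads in every library. Cxcl2, another CXCR2 ligand, had 2 reads in IRF8-deficient, 12 in 4T1-TB and 0 in NTB, and Cxcl12 had 2 reads in IRF8-deficient and 0 in both others. The 10 gave 7 higher and 0 lower in IRF8-deficient than in NTB, 3 higher and 1 lower in 4T1-TB than in NTB, and 6 higher and 1 lower in IRF8-deficient than in 4T1-TB, with median differences of 1.84, 0.11 and 1.08. Among genes whose products reach the formyl peptide receptors, Anxa1, which encodes annexin A1, was at 1462 in the IRF8-deficient, 479 in the 4T1-TB and 176 in the NTB library. Camp, which encodes the cathelicidin precursor, was at 11611 in the IRF8-deficient, 340.3 in the 4T1-TB and 546 in the NTB library. Saa3, a serum amyloid A gene, was at 2.81 in the IRF8-deficient (39 reads), 14.5 in the 4T1-TB (171 reads) and 0.168 in the NTB library (4 reads). Anxa1 thus had the library order of Fpr1 and Fpr2, whereas Camp was lowest and Saa3 highest in 4T1-TB. Camp is also one of the maturing neutrophil markers.

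Alox5, the enzyme that starts leukotriene synthesis, was at 82.2 in the IRF8-deficient, 9.16 in the 4T1-TB and 7.87 in the NTB library. C3, the precursor of C3a, was at 798 in the IRF8-deficient, 155 in the 4T1-TB and 203 in the NTB library. Both were called higher in IRF8-deficient than in each other library, and neither was called in 4T1-TB against NTB. Ccl6, a CCR1 ligand, was at 20.7 in the IRF8-deficient, 12.1 in the 4T1-TB and 3.87 in the NTB library. The ligand gene lower in 4T1-TB than in NTB was Ccl3, named after its values were seen, with 1.36 in IRF8-deficient (28 reads), 0.0570 in 4T1-TB (1 read) and 1.70 in NTB (60 reads).

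Of 34 genes for G proteins and downstream effectors, 33 were compared. They gave 6 higher and 0 lower in IRF8-deficient than in NTB, 2 higher and 0 lower in 4T1-TB than in NTB, and 8 higher and 0 lower in IRF8-deficient than in 4T1-TB. Fgr, a kinase of the Src family, was at 54.9 in the IRF8-deficient, 12.5 in the 4T1-TB and 4.26 in the NTB library, and was called higher in 4T1-TB than in NTB. Lyn, of the same family, was at 82.5 in the IRF8-deficient, 37.2 in the 4T1-TB and 34.0 in the NTB library. Prkcb, a protein kinase C isoform, was at 72.4 in the IRF8-deficient, 26.5 in the 4T1-TB and 29.1 in the NTB library. Dock5 and Prex1, activators of Rac, were at 32.5 and 20.6 in the IRF8-deficient, 13.8 and 7.65 in the 4T1-TB, and 12.0 and 9.82 in the NTB library. The list's median differences were 0.55, 0.08 and 0.51 in the same order of comparisons. After scaling by summed recovered reads, 2 were called higher in IRF8-deficient than in NTB and 3 in IRF8-deficient than in 4T1-TB. Under that scaling 4.33% and 4.72% of all genes were called higher in these comparisons.

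Listed for receptor desensitization and G protein regulation were 16 symbols, some of them older and newer names of the same gene. Of these symbols, 13 were in the tables and 12 compared. They gave 5 higher and 0 lower in IRF8-deficient than in NTB, 0 either way in 4T1-TB against NTB, and 6 higher and 0 lower in IRF8-deficient than in 4T1-TB. The median differences were 0.78, 0.02 and 1.01 in that order. Arrb2, an arrestin, was at 214 in the IRF8-deficient, 77.4 in the 4T1-TB and 48.4 in the NTB library. Grk6, a receptor kinase that acts on CXCR4, was at 106 in the IRF8-deficient, 45.3 in the 4T1-TB and 46.9 in the NTB library. Rgs14, which speeds GTP hydrolysis by inhibitory G proteins, was at 41.2 in the IRF8-deficient, 13.2 in the 4T1-TB and 11.0 in the NTB library. Of the other RGS genes, Rgs3 was at 3.10 in the IRF8-deficient, 0.851 in the 4T1-TB and 0.486 in the NTB library. Rgs2 was at 50.2 in the IRF8-deficient, 20.2 in the 4T1-TB and 36.1 in the NTB library, and Rgs10 was at 27.8 in the IRF8-deficient, 12.5 in the 4T1-TB and 15.3 in the NTB library. After scaling by summed recovered reads, 3 were called higher in IRF8-deficient than in NTB and 2 in IRF8-deficient than in 4T1-TB. The shares of all genes called higher were then 4.33% and 4.72%.

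Of 13 genes of marrow retention and adhesion, 11 were compared. They gave 4 higher and 1 lower in IRF8-deficient than in NTB, 0 higher and 1 lower in 4T1-TB than in NTB, and 4 higher and 0 lower in IRF8-deficient than in 4T1-TB. Itgam and Itgb2, the chains of the integrin Mac-1, were at 361 and 362 in the IRF8-deficient, 53.9 and 69.6 in the 4T1-TB, and 52.2 and 49.1 in the NTB library. Itgal, the alpha chain of LFA-1, was at 35.5 in the IRF8-deficient, 15.2 in the 4T1-TB and 15.3 in the NTB library. Cd44, a hyaluronan receptor, was at 108 in the IRF8-deficient, 38.6 in the 4T1-TB and 48.6 in the NTB library. Each of these 4 was called higher in IRF8-deficient than in both other libraries and was not called in 4T1-TB against NTB. The list's median differences were 0.32, -0.08 and 0.50 in the same order of comparisons. Dpp4, the peptidase that inactivates CXCL12, was at 0.170 in the IRF8-deficient, 0.250 in the 4T1-TB and 1.84 in the NTB library. It is the gene called lower in both comparisons with NTB and passed the filter only through the NTB library, where it is high. After scaling by summed recovered reads, 2 of the list were higher and 3 lower in IRF8-deficient than in NTB. Over all genes, 4.33% were then higher and 18.4% lower.

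**Figure D5:**
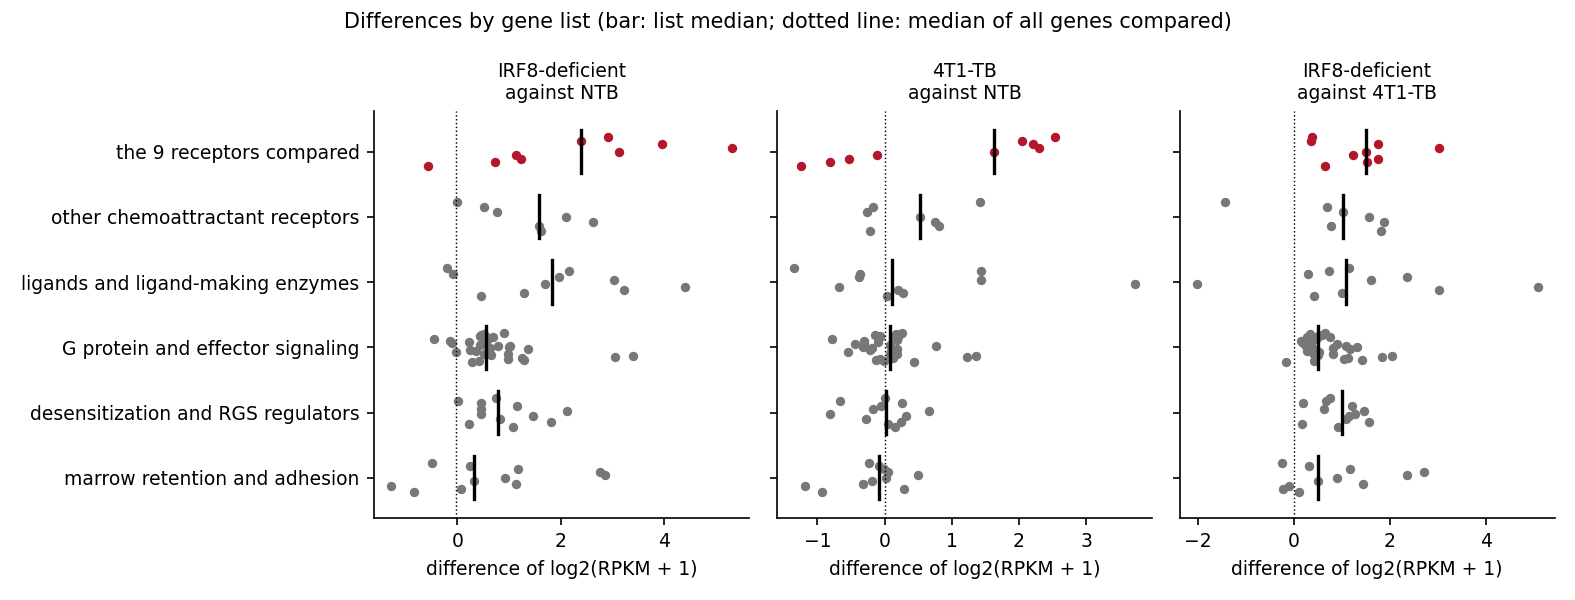
Difference of log2(RPKM + 1) for the 9 receptors compared (red) and the genes compared in 5 related lists (grey), with a bar at each list's median and a dotted line at the median of all genes. The receptor medians are 2.40, 1.63 and 1.51 from the left panel to the right, and the signaling, desensitization and adhesion lists centre near 0 in 4T1-TB against NTB.

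Among the maturing neutrophil markers, the pattern in 4T1-TB was mixed. Retnlg, a resistin-like protein of late neutrophils, was at 392 in the IRF8-deficient, 178 in the 4T1-TB and 6.54 in the NTB library, and Mmp8, neutrophil collagenase, was at 132 in the IRF8-deficient, 36.0 in the 4T1-TB and 2.45 in the NTB library. Mmp9, gelatinase B, was at 149 in the IRF8-deficient, 29.8 in the 4T1-TB and 1.91 in the NTB library. Retnlg, Mmp8 and Mmp9 were called higher than in NTB in both other libraries, as were Cxcr2, Fpr1 and Fpr2. Ltf, the secondary granule protein lactoferrin, was at 4856 in the IRF8-deficient, 65.0 in the 4T1-TB and 75.2 in the NTB library, and Ngp, another secondary granule protein, was at 16528 in the IRF8-deficient, 424 in the 4T1-TB and 632 in the NTB library. Lcn2, a siderophore-binding granule protein, was at 5205 in the IRF8-deficient, 203 in the 4T1-TB and 89.2 in the NTB library. Between 4T1-TB and NTB, Lcn2 was called higher in 4T1-TB, and Ltf and Ngp were not called, at ratios of 0.864 and 0.671 for 4T1-TB over NTB.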

How the data were processed

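The authors deposited RPKM for 24421 gene symbols in each of 3 libraries. The extraction used TRIzol and standard Illumina library protocols, per the labels' protocols. The tools named in the submitters' processing notes are edgeR (3.12.1), HTSeq (0.6.1), Picard (1.97), TopHat2 (2.0.13), cutadapt (1.2.1) and CASAVA (1.8.2), with the build mm10. The sources used here state neither their roles nor the gene annotation, strandedness and form of library size. Deposited RPKM values gave the main results, without any further normalization.

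The ratio of a gene's RPKM between libraries is a ratio of whole read numbers times the ratio of the library sizes. That library-size ratio was first estimated from genes with low values, up to a small whole factor chosen by reference length. Reads were then recovered from the remaining ratios of whole numbers. Implied gene lengths were whole (within 0.02 bases) for 97.92% of 12333 genes with over 20 reads, and 92.3% of 14553 genes were within 0.8 to 1.25 of a reference exon length (GENCODE M21). For 23.98% of genes the reads were multiplied by a whole factor chosen from that reference, so this is not an independent check. The library size behind the RPKM was 0.706 times the recovered reads in IRF8-deficient, 0.923 times in 4T1-TB and 1.03 times in NTB. At the median gene length, an RPKM of 1 rested on 76.4 reads in IRF8-deficient, 65.0 in 4T1-TB and 131 in NTB.

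Differences were taken on log2(RPKM + 1), with a filter at an RPKM of 1 and a call at a difference of 1. No test was run, since each group had 1 library. The alternatives were pseudocounts of 0.1 and 5, scaling by median ratios, without the 20 highest genes or by summed recovered reads, no filter, a filter at 5, a call at 4-fold and a call that needs a counting interval excluding 1. Named were the 10 receptors, Irf8, up to 6 called genes with the largest differences in each list, the 5 genes most alike to Cxcr2 and Cxcr4 by Euclidean distance, and neighbouring receptors. Some genes that this rule names are not reported here. Mpo, Elane, Prtn3, Ctsg, Kit and Rn45s describe the libraries. S100a8, S100a9, Hdc, Bst2, H2-Ab1 and ligand genes with few or no reads were named after their values were seen. The members and lists were chosen with earlier results of these data known. Versions were matplotlib 3.10.9, pandas 2.3.3, scipy 1.17.1, numpy 2.4.6 and Python 3.11.15.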

Additional observations from a re-analysis of the deposited data

How the results depend on the processing

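Across the 9 alternatives, 240 receptor differences were recomputed. The filter and call alternatives leave the difference itself unchanged and can alter only whether it is compared or called. Only the 3 scalings can change a sign, and none of their 81 values did. Of the 240, 16 lost their call and 1 gained it (Cx3cr1 in IRF8-deficient against 4T1-TB, 1.21 with a pseudocount of 0.1). The 240 include differences that were not called in the main results and had no call to lose. Of 81 counts of receptors called, 74 stayed within 1.5 times the value given. These counts are not separate checks, since receptors called in all, called higher and called lower were each counted. In both comparisons of IRF8-deficient the count of lower receptors was 0 under every alternative. In 4T1-TB against NTB, a pseudocount of 5 left 3 receptors called, all 3 higher, and 0 lower. The count of lower receptors was also 0 with a filter at an RPKM of 5, which drops Cx3cr1 from the comparison, and with a call at 4-fold. In IRF8-deficient against 4T1-TB the call at 4-fold left 1, which was higher.

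Counts over all genes moved more. With a pseudocount of 5, 65 genes were higher and 21 lower in 4T1-TB than in NTB, and with a pseudocount of 0.1 they were 282 and 354. Leaving the 20 highest genes out of the scaling gave 722 higher and 919 lower in IRF8-deficient than in NTB, and 764 higher and 913 lower in IRF8-deficient than in 4T1-TB. With scaling by summed recovered reads the all-gene median was -0.14 in 4T1-TB against NTB and -0.33 in IRF8-deficient against 4T1-TB. Few reads limit the values of Fpr1 in NTB (25 reads), Cx3cr1 in 4T1-TB (51 reads) and C3ar1. No paired analysis was possible because each group has 1 library.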
